A study of Mus musculus with 8 samples.

Results

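The immediate early genes examined here are Fos, Fosb, Jun, Junb, Jund, Egr1, Atf3, Ier2, Btg2 and Dusp1. Most of them are known to be induced within minutes when tissue is cut and digested into single cells. The genes were taken by name and read in all 8 libraries. Of the 10 listed, 9 had a row among the 16302 genes measured, and Junb was not analysed here. Mouse embryos at E9.5 were dissected for their second heart field (SHF), a territory of cardiac progenitors that join the poles of the heart tube, and RNA of its cells was sequenced. Regions of several embryos were pooled, digested with trypsin and EDTA, and sorted by flow cytometry on a reporter, so every group went through dissociation and sorting. GFP+ (3 libraries) and GFP- cells (1 library) came from Hoxb1-GFP embryos, in which GFP is placed at the Hoxb1 locus and marks the posterior SHF. The methods appear to give this allele as Hoxb1-, so the line may carry a disrupted copy of Hoxb1. Tomato+ (3 libraries) and Tomato- cells (1 library) came from Mef2c-Cre;Rosa-tdT embryos, in which Cre is driven by the anterior heart field enhancer of Mef2c and leaves tdTomato on in all descendants of the recombined cells. The lines differ in genotype as well as in the cells marked, and no group of undissociated tissue is among these samples, so induction by dissociation cannot be told apart from the level in the embryo.

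Immediate early genes are switched on by factors that already sit in the resting cell, such as serum response factor with its ELK partners and CREB, once these are phosphorylated by MAP kinase and cAMP signalling. The FOS and JUN proteins pair to form AP-1, a transcription factor that binds DNA as a dimer, while EGR1 is a zinc finger factor and ATF3 a stress-induced relative that can repress. DUSP1 is a phosphatase that switches MAP kinases off again, BTG2 slows proliferation and joins in mRNA deadenylation, and IER2 is a small nuclear protein of the same early wave. The family is also used in heart and pharyngeal development, where growth factor signalling acts through the same kinases.

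Values are normalized reads, the reads of a gene divided by 1 size factor per library, and the libraries held 22668185 to 41597870 reads. Mitochondrial ribosomal RNA took 30.6 to 49.3% of them, most of all in Tomato- cells, and the replicate 2 libraries (39.1 and 41.7%) were the highest of the positive ones. Replicates 1 and 3 of each positive group were alike, with a chi-square of 2.35 and 2.38 per degree of freedom, whereas pairs that include replicate 2 gave 72.4 to 93.0. The libraries of a group are biological replicates in the study's words, while the labels do not state whether each came from a pool of its own, so the p-values given here reflect the variation among these libraries alone, and that variation may be technical. SHF genes were present in every group. Hoxb1 was at 849.6 ± 133 in GFP+ and 336 ± 68.4 in Tomato+ libraries (SD, n = 3 each), against 60.8 in the GFP- and 199 in the Tomato- library. Of 11 SHF genes tested, 10 were called higher in GFP+ than in Tomato+ cells and 0 lower (limma adjusted p under 0.05). They included Tbx1 (mean 242 against 122) and Fgf10 (431 against 159), which the study names as anterior SHF markers. Fgf10 was at 397 in the Tomato- library. These markers therefore do not set Tomato+ cells apart as anterior SHF. Because these are bulk samples, fewer cells of a type and less RNA per cell cannot be told apart.

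On GRCm38, Fos lies on the plus strand of chromosome 12 (85473890 to 85477273, 4 exons in the longest transcript) and Fosb on the minus strand of chromosome 7 (19302696 to 19310051, 4 exons). Jun is a single-exon gene on the minus strand of chromosome 4 (95049034 to 95052222), and its exon overlaps Junos on the opposite strand. Btg2 lies on the minus strand of chromosome 1 (134075170 to 134079120, 2 exons), as does Atf3 (191170296 to 191218039, 4 exons). Dusp1 lies on the minus strand of chromosome 17 (26505590 to 26562128, 3 exons) and overlaps Ergic1 on the opposite strand. Jund (8, 70698949 to 70700616, plus strand) and Ier2 (8, 84661331 to 84662852, minus strand) are both single-exon genes. The libraries kept no strand information, so reads in the overlapping exon stretches of Jun, Dusp1 and Jund cannot be assigned to a gene by strand. How reads in such stretches were counted was not settled here. Junos held 10.6 to 64.0 normalized reads, a small part of the level of Jun. Ergic1 held 1498 to 2234 normalized reads, above Dusp1 in every library, and was not called between GFP+ and Tomato+ cells (log2 0.20, limma adjusted p 0.198).

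The 200 bases before the RefSeq start of 5 members are shown because they carry, or lack, the core TGACG of the cAMP response element, the site that CREB and ATF proteins recognise. Fos, Btg2 and Dusp1 were the members called lower in GFP+ cells whose window was read, and Atf3 and Jun were not called. Capitals mark every TGACG on either strand, so that CGTCA in capitals is a core on the opposite strand. All are written 5′ to 3′ on the strand of the gene, from RefSeq on GRCm38.p6.
Fos, chr12:85473690-85473889, plus strand: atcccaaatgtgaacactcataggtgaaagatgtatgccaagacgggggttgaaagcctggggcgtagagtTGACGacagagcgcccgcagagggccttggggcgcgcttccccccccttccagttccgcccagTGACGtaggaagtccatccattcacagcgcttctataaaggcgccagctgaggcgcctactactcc
Btg2, chr1:134079156-134079355, minus strand: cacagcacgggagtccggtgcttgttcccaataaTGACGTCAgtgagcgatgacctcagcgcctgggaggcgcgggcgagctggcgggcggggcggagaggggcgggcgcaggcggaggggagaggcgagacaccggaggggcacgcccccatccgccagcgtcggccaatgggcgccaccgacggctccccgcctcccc
Dusp1, chr17:26508473-26508672, minus strand: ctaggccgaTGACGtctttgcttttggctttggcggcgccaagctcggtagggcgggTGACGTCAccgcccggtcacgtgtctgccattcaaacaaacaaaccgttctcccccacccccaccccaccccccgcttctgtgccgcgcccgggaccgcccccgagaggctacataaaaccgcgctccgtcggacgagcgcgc
Atf3, chr1:191183334-191183533, minus strand: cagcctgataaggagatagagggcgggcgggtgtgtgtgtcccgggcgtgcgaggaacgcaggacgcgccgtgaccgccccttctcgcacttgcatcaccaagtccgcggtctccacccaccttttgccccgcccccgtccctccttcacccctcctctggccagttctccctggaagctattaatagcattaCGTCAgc
Jun, chr4:95052223-95052422, minus strand: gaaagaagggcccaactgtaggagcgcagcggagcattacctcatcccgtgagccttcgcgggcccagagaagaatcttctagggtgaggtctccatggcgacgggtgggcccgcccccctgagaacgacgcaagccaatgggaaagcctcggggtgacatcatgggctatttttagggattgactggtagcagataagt
The Fos window held the core at bases -129 and -66 from the start. In Btg2 and Dusp1 the core formed the full palindrome TGACGTCA, from base -166 in Btg2 and from base -143 in Dusp1, which had a further core at -191. Atf3 held 1 core at base -7 and Jun held 0. Of the other members not called whose window was read, Fosb held 1 core at base -60. The Jund window held 0, before a RefSeq start at 70697739 that lies upstream of the gene start given above. Over 32851 windows of this length before RefSeq starts, 15.7% held TGACG and 1.47% held TGACGTCA. The CArG box, the site of serum response factor, was found in 1.18% of all windows and in 0 of those read here. The windows of Egr1 and Ier2 were not read, and a site further than 200 bases from the start would be missed. The count of 0 therefore does not show that these genes lack the site. A match of letters is a description of the window and not a measured site, and genes that were called and genes that were not both held the core.

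Per kilobase of exon, the order of the levels differed between the sorted populations. The length used was that of all annotated exons merged. It exceeded the longest transcript most in Fosb (6243 against 3782 bases) and Dusp1 (3311 against 2313), and equalled it in Jun and Egr1. The ranks of Dusp1 and Fosb against Jun and Egr1 therefore depend on the length chosen. In GFP+ cells Jun was highest, at 359.9 ± 22.0 normalized reads per kb (SD, n = 3), above Egr1 (283 ± 25.9) and Dusp1 (258 ± 20.7), whose ranges of mean ± SD met. Fosb followed at 185 ± 26.2 and Ier2 at 134 ± 25.6, then Atf3 (60.5 ± 19.7), Fos (58.6 ± 8.54) and Btg2 (54.3 ± 17.4), which did not differ beyond their spread. In Tomato+ cells Egr1 led at 575 ± 97.8 per kb, before Jun (371 ± 21) and Dusp1 (335 ± 5.01). Fos stood at 185 ± 13 there, level with Ier2 (163 ± 11.6) and Fosb (161 ± 48.1) within their spread, and Atf3 was at 35.7 ± 12.7. Jund had the lowest mean in both populations, at 32.0 ± 4.65 and 30.9 ± 13.8, and in Tomato+ cells it lay within the spread of Atf3.

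The first comparison asks whether these genes differed between sorted GFP+ and Tomato+ cells. The AP-1 subunit gene Fos, the zinc finger factor Egr1, the antiproliferative gene Btg2 and the phosphatase Dusp1 were lower in GFP+ cells, by 3.16-fold, 2.02-fold, 2.14-fold and 1.30-fold. Of the 9, 0 were called higher by limma, edgeR or DESeq2, 0 were higher at an unadjusted limma p under 0.05, and Fosb, Jun, Jund, Atf3 and Ier2 did not pass the test. The 4 called lower compare with 20.0% of all 16153 genes tested called lower, 19.7% called higher and 39.7% called in either direction (limma, Benjamini-Hochberg adjusted p under 0.05). The median log2 fold change of the 9 members, GFP+ over Tomato+, was -0.30, against -0.01 over all genes tested. All 9 passed the filter on low values, which asked for a mean of 10 normalized reads or more over the 6 libraries.

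Fos, which encodes the AP-1 subunit that most often partners JUN, had 115, 152 and 146 normalized reads in the GFP+ libraries and 407, 467 and 429 in the Tomato+ libraries (replicates 1, 2 and 3). Every GFP+ library lay well under the lowest Tomato+ library. The means were 138 ± 20.1 and 434 ± 30.5 (SD, n = 3 each), a log2 fold change of -1.66 (SE 0.19, limma adjusted p 0.000429). Egr1, a zinc finger activator downstream of growth factor signalling, had 1302, 1141 and 1367 normalized reads in GFP+ and 2339.9, 3085 and 2311 in Tomato+ libraries. The groups were again apart, and replicate 2 held both the lowest GFP+ and the highest Tomato+ value. Its log2 fold change was -1.01 (SE 0.14, limma adjusted p 0.000986). Fos and Egr1 were called under every alternative tried.

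**Figure D1:**
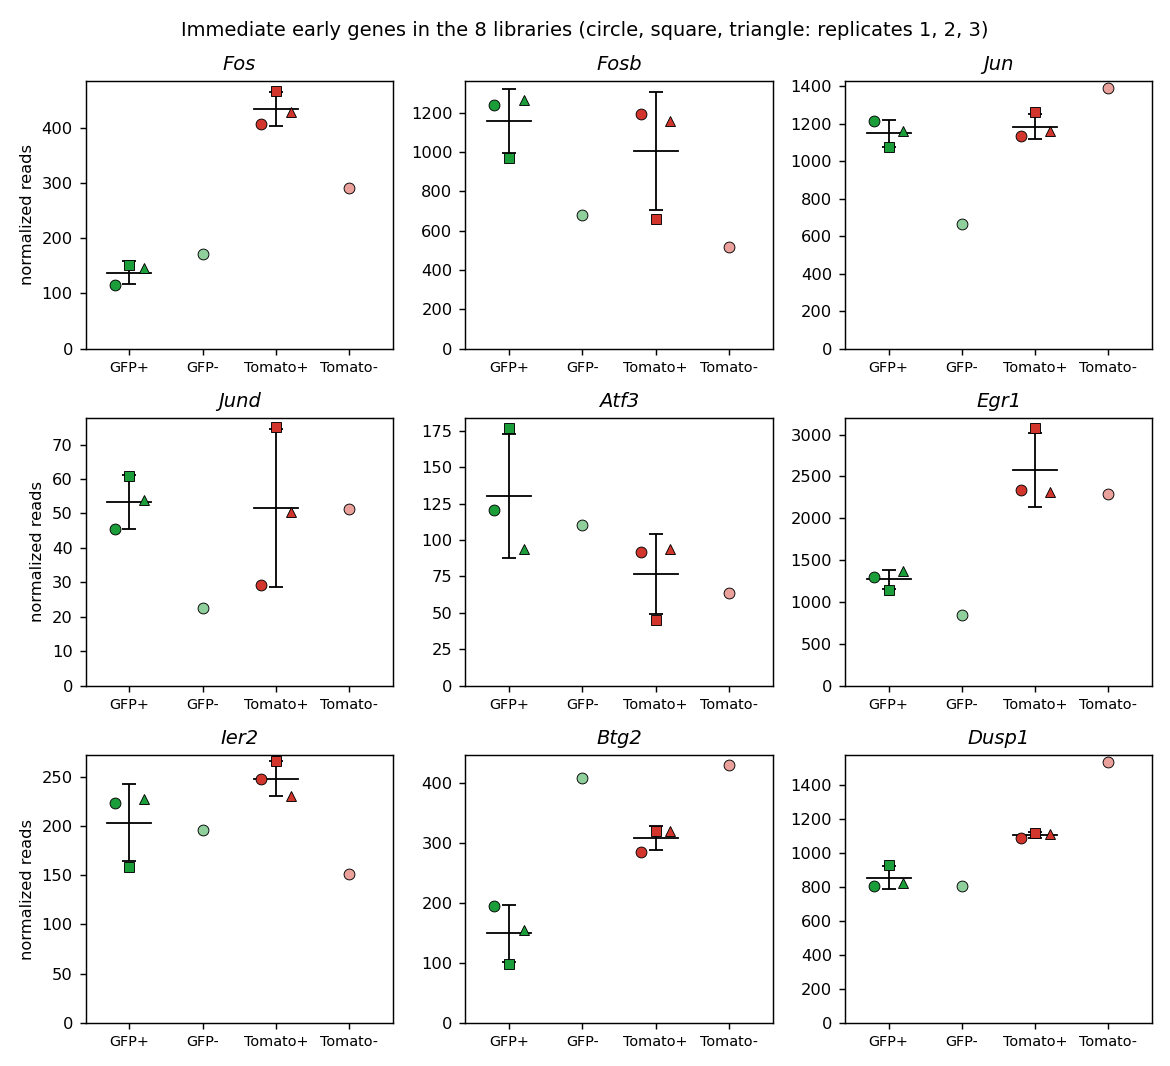
Normalized reads (y axis, linear, from 0) of the 9 immediate early genes in each library of GFP+, GFP-, Tomato+ and Tomato- cells. Points are libraries, circles, squares and triangles are replicates 1, 2 and 3, and bars are the mean ± SD of the 3 positive libraries; Fos and Egr1 separate GFP+ from Tomato+ cells in all 3 libraries, while Jun and Jund overlap.

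Btg2, whose product restrains the cell cycle and is induced by p53 and by growth signals, had 194, 98.6 and 154 normalized reads in GFP+ and 285, 319.9 and 319 in Tomato+ libraries. The 3 Tomato+ libraries lay close together, and the GFP+ libraries were spread over a wider range below them. The log2 fold change was -1.10 (SE 0.27, limma adjusted p 0.0138). Dusp1, the phosphatase that inactivates p38, JNK and ERK, had 806, 934 and 827 normalized reads in GFP+ and 1090.3, 1121 and 1116 in Tomato+ libraries. The gap between the highest GFP+ and the lowest Tomato+ library was larger than the range within either group, and the log2 fold change was -0.38 (SE 0.10, limma adjusted p 0.0229). Neither call held when the near-alike replicates 1 and 3 were averaged to 1 value (adjusted p 0.0535 for Btg2 and 0.320 for Dusp1, beside 18.1% of all genes still called and 9.24% called lower). Btg2 was also lost without Tomato+ replicate 3 (adjusted p 0.0515), and Dusp1 without GFP+ replicate 1 (0.106), GFP+ replicate 3 (0.0967), Tomato+ replicate 1 (0.0758) or Tomato+ replicate 3 (0.0888), so the count of members called ran from 2 to 4.

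Of the 5 members not called, Atf3 and Ier2 had libraries that did not overlap between the groups. Atf3, the stress-induced bZIP factor, had 121, 177 and 93.6 normalized reads in GFP+ and 91.9, 45.3 and 93.5 in Tomato+ libraries. GFP+ replicate 3 and Tomato+ replicate 3 were nearly equal, and most of the distance between the groups was in replicate 2. Its log2 fold change was 0.78 (95% interval -0.12 to 1.68, limma adjusted p 0.148). Ier2 had 224, 159 and 228 normalized reads in GFP+ and 248, 266 and 231 in Tomato+ libraries, so that replicate 3 of the groups nearly met. Its log2 fold change was -0.30 (95% interval -0.78 to 0.18, limma adjusted p 0.280). In all, 5 members were lower and 1 was higher without overlap, where 27.4% of all genes were lower, 27.2% higher and 54.6% either without overlap.

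Fosb, a partner of JUN in AP-1 like Fos, had 1239, 969 and 1264 normalized reads in GFP+ and 1195, 657 and 1158 in Tomato+ libraries. Replicate 2 was the low library in both groups, and the ranges overlapped (log2 fold change 0.25, 95% interval -0.30 to 0.79, limma adjusted p 0.439). Jun had 1212, 1073 and 1158 normalized reads in GFP+ and 1133, 1260.0 and 1159 in Tomato+ libraries. These 6 libraries were close together, and the 95% interval of the log2 fold change was -0.28 to 0.19 around -0.05 (limma adjusted p 0.748). Jund, a JUN relative that is usually present without a stimulus, had 45.3, 60.8 and 54.0 normalized reads in GFP+ and 29.1, 75.0 and 50.3 in Tomato+ libraries. The Tomato+ libraries lay on both sides of the GFP+ range, and the interval of the log2 fold change was wide, -0.85 to 1.14 around 0.14 (limma adjusted p 0.821). Jund had the lowest means of the members, with transcripts of 67.1% G and C, and in the GFP- library it rested on 26 reads.

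**Figure D2:**
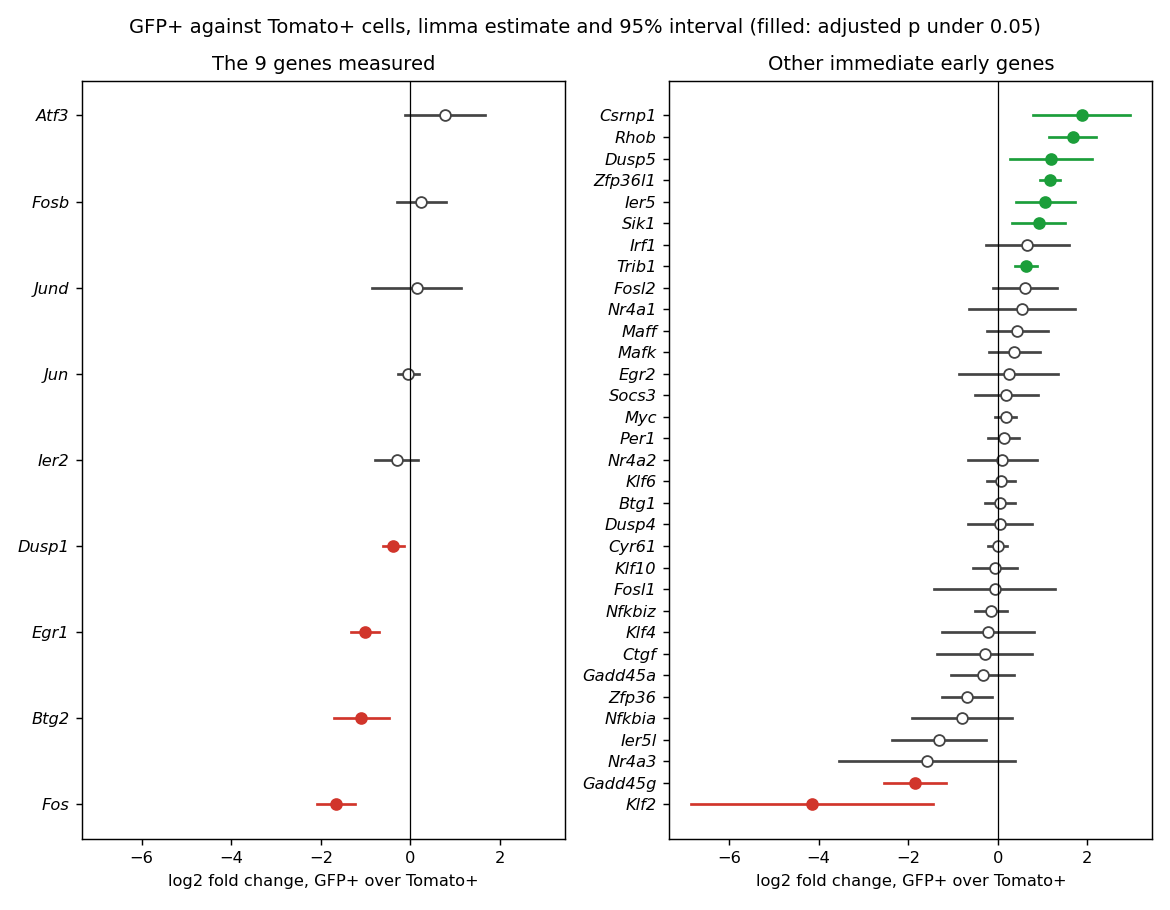
Log2 fold change, GFP+ over Tomato+ (x axis), of the 9 immediate early genes (left) and of 33 other immediate early genes (right), with 95% limma intervals; filled points passed an adjusted p of 0.05. Fos, Btg2, Egr1 and Dusp1 were called lower. Among the other genes 7 were called higher and 2 lower, a share of 27.3% against 39.7% of all genes tested.

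The replicate 2 libraries set the size of several of these differences. Within replicate 2 the log2 difference of Atf3, GFP+ minus Tomato+, was 1.94, and over replicates 1 and 3 it was 0.20. Btg2 was at -1.69 in replicate 2 and -0.80 in the others, Egr1 at -1.43 and -0.80, and Ier2 at -0.74 and -0.08. Fos hardly depended on this, with -1.61 and -1.68. Within Tomato+ cells, replicate 2 lay under the mean of replicates 1 and 3 by a log2 difference of -1.02 in Atf3 and -0.84 in Fosb, and over it by 0.95 in Jund. Within GFP+ cells it lay under that mean by -0.80 in Btg2 and over it by 0.73 in Atf3. The median absolute difference over all genes was 0.33 in GFP+ and 0.37 in Tomato+ cells. Replicate 2 of each group also had the higher share of mitochondrial ribosomal RNA, and the part of this in the differences was not tested.

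The negative cells of each line allow the lines to be compared in cells without the reporter. Egr1, Dusp1 and Fos were also lower in GFP- than in Tomato- cells, and so were Jun and Jund, while Btg2 was nearly equal. Egr1 had 839 normalized reads in the GFP- and 2295 in the Tomato- library, a 2.74-fold difference. Dusp1 had 807 and 1540.4, a 1.91-fold difference, and Fos had 171 and 291, a 1.70-fold difference. These libraries thus ranked as the positive libraries of their lines did. Jun, level between positive cells, had 664 in the GFP- and 1391 in the Tomato- library, which is 2.10-fold. Btg2 had 407 and 429, both above every positive library. Ier2 went the other way from positive cells, at 196 in GFP- and 151 in Tomato-, as did Jund at 22.6 and 51.3. Atf3 (110.3 and 63.4) and Fosb (678 and 515) were higher in GFP- cells. In all, 7 of 9 members (77.8%) had a difference of the same sign between the lines in negative as in positive cells, against 66.0% of all genes tested. With 1 negative library per line these differences have no replicate check.

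**Figure D3:**
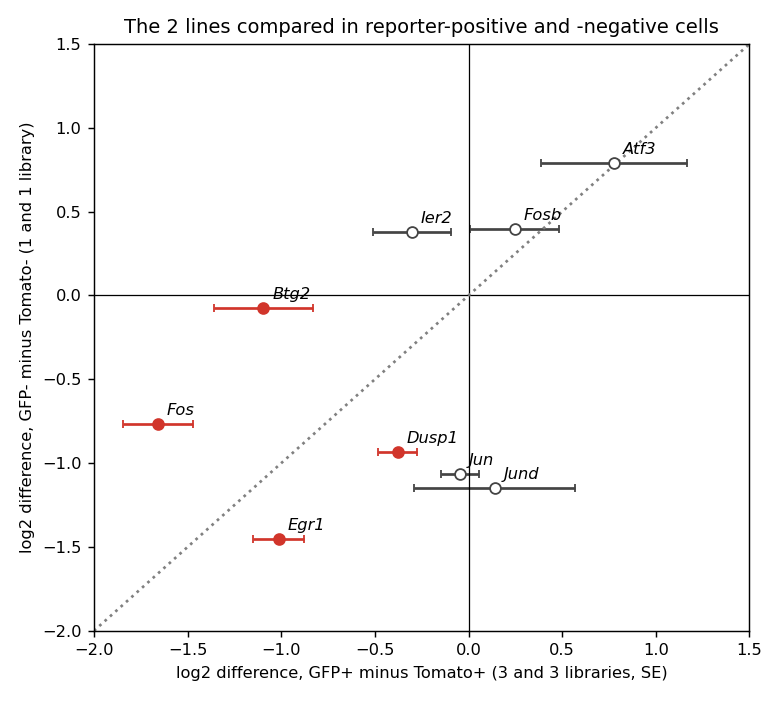
Log2 difference between the lines for each of the 9 genes, GFP+ minus Tomato+ (x axis, limma estimate with SE, 3 and 3 libraries) against GFP- minus Tomato- (y axis, 1 and 1 library); filled points passed the test in positive cells and the dotted line marks equality. Egr1 and Dusp1 lie below the line, Fos and Btg2 above it, and Jun has a difference of -1.07 in negative cells against -0.05 in positive cells.

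Within a line, the widest gaps between positive and negative cells were those of Btg2 and Jund in the Hoxb1-GFP line and of Fosb in the other. In the Hoxb1-GFP line, Btg2 was 2.74-fold higher in GFP- cells than the mean of GFP+ cells and 2.10-fold above the highest GFP+ library. It was the single member that stood apart from its negative library, meaning a gap of 2-fold or more between the negative library and each positive one, with 50 or more normalized reads on the side with more. Over all genes 8.19% stood apart, 4.12% higher and 4.07% lower in GFP+ cells. Without GFP+ replicate 1 a second member stood apart, Jund, whose remaining GFP+ libraries held 60.8 and 54.0 normalized reads against 22.6. Jund (2.36-fold), Jun (1.73-fold), Fosb (1.71-fold) and Egr1 (1.51-fold) had means above GFP-, with 3 of 3 GFP+ libraries above it.

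In the Mef2c-Cre;Rosa-tdT line, 0 members stood apart, against 13.4% of all genes (6.32% higher and 7.04% lower in Tomato+ cells), and 1 did without Tomato+ replicate 2 (Fosb, with 1195 and 1158 normalized reads against 515). Fosb (1.95-fold), Ier2 (1.64-fold) and Fos (1.49-fold) had means above Tomato-, with 3 of 3 Tomato+ libraries above it. Btg2 and Dusp1 were 1.39-fold higher in Tomato- cells than the mean of Tomato+ cells, and all 3 Tomato+ libraries lay below. A limma fit over all 8 libraries, chosen after the data were seen, assumes that a lone negative library varies like the positive groups. It called Jun higher (log2 0.79, adjusted p 0.0172) and Btg2 lower (log2 -1.50, adjusted p 0.0498) in GFP+ than in GFP- cells, where 6.97% of all genes were called, and 0 members between Tomato+ and Tomato- cells, where 15.7% were called. In that comparison 3 members had an unadjusted p under 0.05 (Fosb, Ier2 and Dusp1). Averaging replicates 1 and 3 ended both calls of the GFP line (adjusted p 0.199 for Jun and 0.0752 for Btg2, with 3.57% of all genes called), and 0 members were called in the Tomato line in that limma fit, with 3.55% of all genes called and Fosb at an unadjusted p of 0.0390. The test of the difference between the lines in their positive-to-negative contrast called 1 member, Jun (log2 1.02, adjusted p 0.0223), beside 10.7% of all genes, and 0 members with replicates 1 and 3 averaged (Jun at an unadjusted limma p of 0.0217), beside 2.12% of all genes.

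Other immediate early genes were called in both directions. Of 42 listed, 34 were in the table and 33 were tested. Of these, 7 were called higher in GFP+ cells, 2 lower and 24 neither, with a median log2 fold change of 0.11. The share called was 27.3%, against 39.7% of all genes tested. Rhob, a small GTPase of the cytoskeleton, was higher in GFP+ cells, at 2368 ± 435 normalized reads against 752 ± 237 (SD, n = 3 each; log2 1.68, limma adjusted p 0.00101). So were the mRNA decay factor Zfp36l1 (2221 ± 200.4 against 982 ± 0.837; log2 1.17, adjusted p 0.000118) and the nuclear factor Csrnp1 (113 ± 38.8 against 31.0 ± 15.4; log2 1.88, adjusted p 0.0158). Gadd45g, a growth arrest and stress gene, was lower (114 ± 40.5 against 397 ± 70.2; log2 -1.84, adjusted p 0.00256). Csrnp1 lost its call without GFP+ replicate 1 (adjusted p 0.0782), GFP+ replicate 3 (0.0673) or Tomato+ replicate 1 (0.0528), and with replicates 1 and 3 averaged (0.176). With replicates 1 and 3 averaged 3 genes of this list were called, beside 18.1% of all genes. Without 1 library the count ran from 4 (without GFP+ replicate 1 or 3) to 9.

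The MAP kinase and factor genes that act above immediate early genes were called in both directions with 6 libraries, and in the higher direction alone once replicates 1 and 3 were averaged. Of 21, 7 were higher in GFP+ cells, 4 lower and 10 neither, with a median log2 fold change of 0.25. The share called was 52.4%, against 39.7% of all genes tested. The ERK kinase Map2k1 had 1364 ± 73.9 normalized reads in GFP+ against 688 ± 55.4 in the other cells (SD, n = 3 each; log2 0.99, limma adjusted p 0.000400). Mapk3, which encodes ERK1, had a log2 fold change of 1.02 (adjusted p 0.0139) and Rps6ka3, a kinase that phosphorylates CREB, one of 0.87 (adjusted p 0.00260). Srf itself, the factor that binds the Fos promoter, was higher in GFP+ cells with 1650.1 ± 255 against 895 ± 119.6 (log2 0.88, adjusted p 0.00334). The part of these upstream genes in the levels of the members was not tested. Among those called lower in GFP+ cells were the SRF partners Elk3 and Mkl1 and the CREB relative Crem, and all 3 lost their call with replicates 1 and 3 averaged (adjusted p 0.0948, 0.0600 and 0.285). Crem also lost it without GFP+ replicate 1 (0.0816), GFP+ replicate 3 (0.0612), Tomato+ replicate 1 (0.0964) or Tomato+ replicate 3 (0.112). Mapk3 lost its call without GFP+ replicate 1 (adjusted p 0.0519) or GFP+ replicate 3 (0.0515), and with replicates 1 and 3 averaged (0.0653). Under that averaging 4 of the 21 were called, each of them higher, beside 18.1% of all genes called. Without 1 library 7 (without GFP+ replicate 1 or 3) to 11 were called.

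Heat shock genes, the other class known to rise during dissociation, were called at a share near that of all genes tested. Of 20 listed, 16 were tested, of which 6 were higher in GFP+ cells, 1 lower and 9 neither, with a median log2 fold change of 0.44. That is 43.8% called, against 39.7% of all genes tested (19.7% higher and 20.0% lower). Hspd1, the mitochondrial chaperone, stood at 22802 ± 298 normalized reads against 9211 ± 134 (SD, n = 3 each; log2 1.31, limma adjusted p 7.71e-06). Hspa5, the chaperone of the endoplasmic reticulum (log2 1.25, adjusted p 0.000238), and Hsf1, the heat shock factor (log2 1.04, adjusted p 0.000149), were also higher, as was the polyubiquitin gene Ubb (log2 0.56, adjusted p 0.0118, 0.0577 without Tomato+ replicate 1 and 0.168 with replicates 1 and 3 averaged). Without 1 library the count of calls ran from 6 to 12, with 12 reached without GFP+ replicate 2. Among 12 other AP-1 partners and bZIP relatives tested, 1 was higher and 2 were lower (median -0.02), a share of 25% called. Maf was lower, at 189 ± 16.5 against 519 ± 11.7 normalized reads (log2 -1.45, adjusted p 0.000309), and Atf2 was higher (log2 0.27, adjusted p 0.0360). The call of Atf2 was lost without GFP+ replicate 1 (0.0672), GFP+ replicate 3 (0.0569), Tomato+ replicate 1 (0.112) or Tomato+ replicate 3 (0.116), with replicates 1 and 3 averaged (0.206), and when levels were scaled to the total outside mitochondrial genes (0.219).

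Markers of blood cells differed between the sorted groups. Of 10 macrophage markers 8 were in the table, 7 were called lower in GFP+ cells and 0 higher. Their summed level was 192 to 282 normalized reads in GFP+, 1851 to 2150.4 in Tomato+, 334 in GFP- and 1918 in Tomato- cells. Egr1 had 1141 to 1367 normalized reads in GFP+, 2311 to 3085 in Tomato+, 839 in GFP- and 2295 in Tomato- cells. Most of the macrophage sum in GFP+ cells was Cd68, the marker not called, with 129, 212 and 123 normalized reads. The GFP- library had 93.8 of Cd68. Ptprc, the general leukocyte marker, was at 0.922 to 3.30 in GFP+ and 243 to 288 in Tomato+ libraries. All 10 erythroid markers were called lower in GFP+ cells, with sums of 928 to 1331 in GFP+, 110478 to 135494 in Tomato+, 271764 in GFP- and 258538 in Tomato- cells. Btg2 had 98.6 to 194 normalized reads in GFP+, 285 to 319.9 in Tomato+, 407 in GFP- and 429 in Tomato- cells. No marker of either list was at 0 in all libraries. Endothelial markers, 5 of 8 called lower in GFP+ cells, summed to 1354 to 1517 in GFP+, 2124 to 2591 in Tomato+, 2623 in GFP- and 3126 in Tomato- cells. The part of these cells in the levels of the immediate early genes was not tested.

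**Figure D4:**
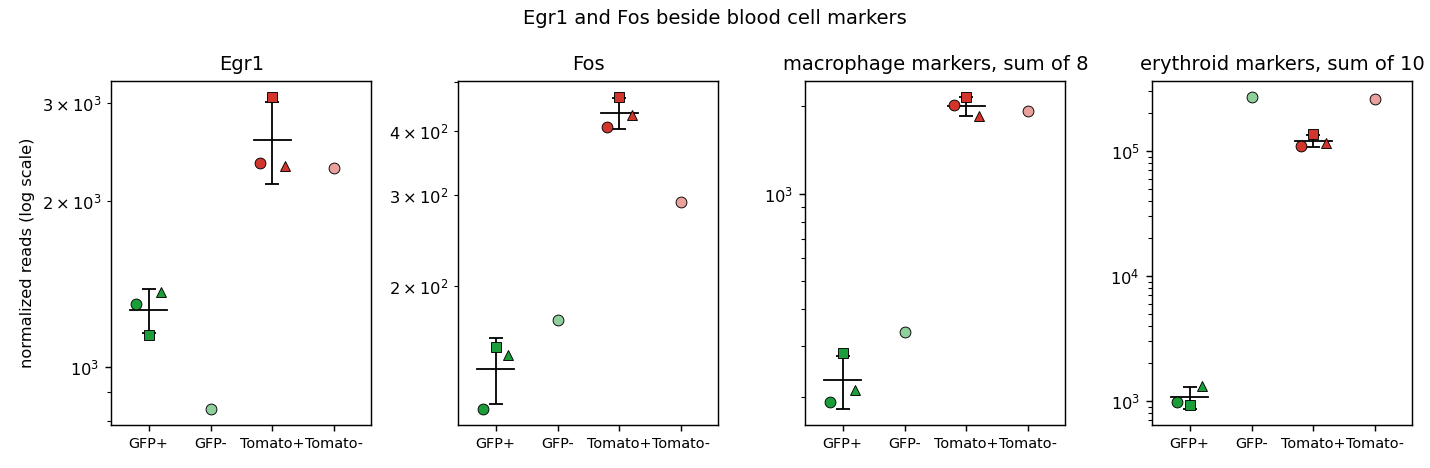
Normalized reads (y axes, log scale) of Egr1, Fos, the sum of 8 macrophage markers and the sum of 10 erythroid markers in the libraries of GFP+, GFP-, Tomato+ and Tomato- cells. Points are libraries and bars are the mean ± SD of 3 positive libraries. Macrophage markers and Egr1 are both high in the Tomato groups, but they differ in opposite directions between GFP+ and GFP- cells. Erythroid markers are low in GFP+ cells alone.

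Markers of the other tissues of the region also differed. Neural markers, 8 of 10 called lower in GFP+ cells, summed to 8722 to 9222 normalized reads in GFP+, 22023 to 23408 in Tomato+, 16427 in GFP- and 18655 in Tomato- cells. Neural crest markers, 3 of 7 called lower, summed to 4600.2 to 4639, 9382 to 9941, 7332 and 11159 in the same order. Cardiomyocyte markers, 8 of 9 called higher in GFP+ cells, summed to 30425 to 35426 in GFP+, 4305 to 4856 in Tomato+, 16999 in GFP- and 2838 in Tomato- cells. Endoderm epithelium markers (8 of 8 called higher) gave 7339 to 8209, 842 to 1011, 1608 and 1118, and second heart field genes (10 of 11 called higher) gave 17673 to 18924, 8239.7 to 8688, 5182 and 7403. Positive cells were GFP+ or Tomato+, so any gene lower in GFP+ cells, as Egr1 and Fos were, is higher where these cardiac markers are lower. The part of these tissues in the levels of the immediate early genes was not tested.

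The members did not share a single profile over the 8 libraries. Pearson's r of each with the mean standardized profile of all members, in which it takes part itself, was 0.95 for Egr1, 0.79 for Fos, 0.77 for Jun and 0.64 for Dusp1. It was 0.49 for Jund, 0.45 for Ier2, 0.22 for Btg2, 0.11 for Fosb and -0.60 for Atf3. Fos and Egr1 had an r of 0.86 with each other and Egr1 and Atf3 one of -0.77. The 8 points share 2 lines and 4 groups, so these values mostly describe differences between groups. Among 11809 genes whose mean over the 8 libraries was 100 normalized reads or more, those most like the mean profile were Hoxa4 (r 0.99), Plcl1 (0.99), Pcdh18 (0.99), Grik4 (0.99) and Ehbp1 (0.98).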

How the data were processed

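RNA-seq of 8 sorted libraries was analysed from the table that the authors deposited. Per the labels, 2 ng of total RNA was amplified with the Ovation V2 kit, which keeps no strand, and the submitters' processing notes name bcl2fastq 2.17.1.14, STAR 2.5.2, HTSeq, DESeq2 and mm10. A paragraph of the study's methods names RSEM, single-end reads and an Ensembl gene build instead, so which annotation gave the deposited reads was not settled. The authors' deposited library columns hold a signal, reads divided by a DESeq2 size factor, and their mean over libraries is a further deposited signal column. The deposited log2 fold change, the deposited score (Wald statistic) and the deposited p-value columns come from the authors' own comparison and were not used. Whole reads were recovered within 0.01 for 100% of values.

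Members and gene lists were chosen with earlier results of these data known, so they are no independent support. GFP+ and Tomato+ libraries were compared with limma 3.58.1 (R 4.3.3, trend) on log2(normalized reads + 1), two-sided, without covariates, over 16153 genes with a mean of at least 10. Fold changes are on that scale and understate changes of low genes. The p-values were adjusted by Benjamini-Hochberg, with a threshold of 0.05. The unit assumed in the design was the one found. Alternatives were pseudocounts of 0.5 and 10, no filter, other scalings, each library left out, replicates 1 and 3 averaged, a replicate block, 4 groups over 8 libraries, and edgeR 4.0.16 and DESeq2 1.42.0 on recovered reads. Lists are given by counts and medians. Named genes were all members, up to 4 called genes per list with the largest absolute log2 fold change, a mean of at least 100 in the higher group and no overlap, and the 5 genes most like the members. Junos, Ptprc, Cd68, Hoxb1, Tbx1, Fgf10, the partners named without values, Ergic1, Dusp2 and Klf2 were named after values were seen. A few list genes are not reported here by name. Scripts were tested on simulated data. A gene at 0 has a floor of 3 reads, 2.16 to 4.53 normalized reads by library, and floors and intervals speak of counting error alone, because reads of amplified cDNA share molecules. Of the symbols, 15768 (96.7%) matched 1 gene of GENCODE M21.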

Additional observations from a re-analysis of the deposited data

Results flagged for a closer look

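For Fos and Jun, the positive libraries lay on opposite sides of the negative library in the lines. For Fos, all 3 GFP+ libraries (115, 152 and 146 normalized reads) lay below the GFP- library (171), and all 3 Tomato+ libraries (407, 467 and 429) lay above the Tomato- library (291). The difference of these differences was -0.89 on the log2 scale (SE 0.37, limma adjusted p 0.160 over 8 libraries, where 10.7% of all genes were called), so it did not pass the test. For Jun, all 3 GFP+ libraries (1212, 1073 and 1158) lay above the GFP- library (664), and all 3 Tomato+ libraries (1133, 1260.0 and 1159) lay below the Tomato- library (1391). Here the difference was 1.02 (SE 0.20, limma adjusted p 0.0223). With replicates 1 and 3 averaged it was 0.97 with an adjusted p of 0.215, beside 2.12% of all genes called, and the estimate of Fos was -0.88 (adjusted p 0.548). Both rest on 1 negative library per line, which the fit assumes to vary like the positive groups.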

How the results depend on the processing

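Fos and Egr1 were called lower in GFP+ cells under all 16 alternatives (log2 -1.79 to -1.53 and -1.15 to -0.88). The same 4 members were called by edgeR, by DESeq2, under other pseudocounts and scalings, and with all 8 libraries. Scaling to the total outside mitochondrial genes moved the median of all genes to -0.14 and the share of calls that were higher from 49.7 to 37.3% (2378 higher and 4004 lower), and members called stayed at 4. Averaging replicates 1 and 3 lowered calls to 2930 genes, 2 members, 3 other immediate early genes and 4 upstream genes. DESeq2 called 11 heat shock genes. With 1 library left out, calls ran from 4311 to 7913 over all genes, from 2 to 4 members, from 4 to 9 other immediate early genes, from 7 to 11 upstream genes and from 6 to 12 heat shock genes. Members standing apart from their negative library numbered 1 to 2 (GFP line) and 0 to 1 (Tomato line) with 1 library left out, and 0 at 3-fold in the GFP line. Among members not called between GFP+ and Tomato+ cells, the sign turned for Jun, which ran from -0.085 to 0.0024 with 1 library left out (0.0024 without GFP+ and 0.00018 without Tomato+ replicate 2), for Jund (-0.21 to 0.46, lowest without Tomato+ replicate 1), for Fosb (-0.034 to 0.40, lowest without Tomato+ replicate 2), and for the difference between the lines of Atf3 with replicates 1 and 3 averaged (0.29); the cause was not tested. Libraries with the same number deviated together only weakly (r 0.040, 0.025 and 0.016), and GFP+ replicate 3 correlated better with Tomato+ replicate 1 (0.021) than with replicate 3. With a replicate block 5991 genes and 4 members were called. Depth limited Jund most, with 26 reads in the GFP- library.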

Other observations

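Dusp2, a phosphatase relative of Dusp1 that is typical of activated immune cells, was chosen after its values were seen. It had 305 normalized reads in the Tomato- library, 9.10, 31.1 and 12.2 in the Tomato+ libraries, 3.66, 1.84 and 0 in the GFP+ libraries and 0.869 in the GFP- library. Its mean over the 6 positive libraries was under the filter, so it was not tested. Klf2, a factor of endothelium and blood cells that also rises as an early gene, had 0.731, 24.0 and 0 normalized reads in GFP+ and 52.8, 69.4 and 61.9 in Tomato+ libraries, with 41.7 in GFP- and 45.3 in Tomato- cells. Its called difference (limma adjusted p 0.0250) is set against GFP+ libraries at or under the floor of 3 reads in replicates 1 and 3. The call of Klf2 was lost without GFP+ replicate 1 (0.0735) or 3 (0.0667), without Tomato+ replicate 1 (0.0628), 2 (0.0619) or 3 (0.0686), with replicates 1 and 3 averaged (0.0893) and in edgeR (0.102).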
